A study of Mus musculus with 2 samples.

Results

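The amino acid transporter families considered here are the solute carrier genes whose symbols begin with Slc1a, Slc3a, Slc6a, Slc7a, Slc36a, Slc38a or Slc43a followed by a number. Every probe set annotated to a single gene with such a symbol was taken, and a gene with several probe sets was represented by the one with the highest mean over both arrays. The rule found 67 probe sets of 43 genes, out of 12393 genes named on the arrays. They comprise 6 Slc1a, 2 Slc3a, 15 Slc6a, 13 Slc7a, 6 Slc38a and 1 Slc43a genes, and no probe set carried an Slc36a symbol.

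The cells were E14tg2a, an established line of mouse embryonic stem cells. The shDAB2 clone (clone 4) carries, by stable transfection, a plasmid for shDAB2-285, a short hairpin RNA directed at Dab2, which encodes an adaptor protein of clathrin-mediated endocytosis. The vector clone (clone 9) carries the control plasmid, also by stable transfection. Both grew in GMEM medium with 10% fetal bovine serum, 1% L-glutamine, penicillin, streptomycin and 1000 U/ml of leukaemia inhibitory factor, the cytokine that holds these cells undifferentiated. There was 1 Affymetrix mouse 430A array for each clone, so every value below is a single measurement, no test across samples exists, and hairpin, clone and culture cannot be told apart.

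Amino acids cross membranes mainly through carrier proteins, and these families hold many of the carriers at the cell surface. Some are sodium-driven and accumulate their cargo (Slc1, Slc6, most of Slc38), some are exchangers that swap one amino acid for another (Slc1a4, Slc1a5, most of Slc7), and the Slc3 proteins are heavy chains that carry several Slc7 light chains to the surface. Genes of several of these carriers are known targets of the amino acid response, in which the transcription factor ATF4 acts on C/EBP-ATF response elements. In mouse embryonic stem cells, the supply of amino acids such as glutamine, leucine and threonine is known to bear on growth and on chromatin.

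The arrays give log2 expression values made by the authors with RMA, and differences are given as the shDAB2 value minus the vector value. The floor was set at 6.62, the median over every probe set and both arrays, and 7269 genes reached it on at least 1 array. The Pearson correlation between the arrays was 0.99, and the SD of the differences was 0.22 among genes that reached the floor. Repeat readings exist only where a gene has several probe sets: in 2502 such genes the SD of the difference for 1 probe set was 0.11. Dab2 itself read 6.33 in shDAB2 cells and 6.64 in vector cells, a log2 difference of -0.31. The shDAB2 value was under the floor and the vector value just over it, so the extent of the knockdown cannot be read from them. Of the markers of the labelled cell type, embryonic stem cells, 10 of 10 were above the floor, 5 lower and 5 higher in the shDAB2 clone, from Lin28a at -0.29 to Fgf4 at 0.61, with Pou5f1 at 0.10, Sox2 at -0.17 and Nanog at -0.02.

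Of the 43 transporter genes, 19 were above the floor and 24 were not. The floor let a gene through on its higher value, so these 19 are not the whole set: 16 reached the floor on both arrays, 1 on the shDAB2 array only and 2 on the vector array only. Nearest the floor were Slc38a3 (6.63 in shDAB2 cells and 6.60 in vector cells) just inside and Slc1a1 (6.38 in shDAB2 cells and 6.53 in vector cells) just outside. Among the 19 genes, 12 were lower and 7 higher in the shDAB2 clone, where the shares among all genes that passed the floor were 49.3% lower and 50.0% higher. Their median difference was -0.04, against 0.001 for all genes above the floor. At least 1.5-fold lower were 2 of the 19 genes (10.5%), against 1.62% of all genes above the floor, and 0 were at least 1.5-fold higher, against 0.578%. At a limit of 0.32 on the log2 scale, 4 were lower, against 6.07% of all genes, and 1 was higher, against 4.91%. No member passed 2-fold, which 0.179% of all genes did downwards and 0.0275% upwards. In a bulk culture, fewer cells that express a gene and less of its RNA per cell cannot be told apart.

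**Figure D1:**
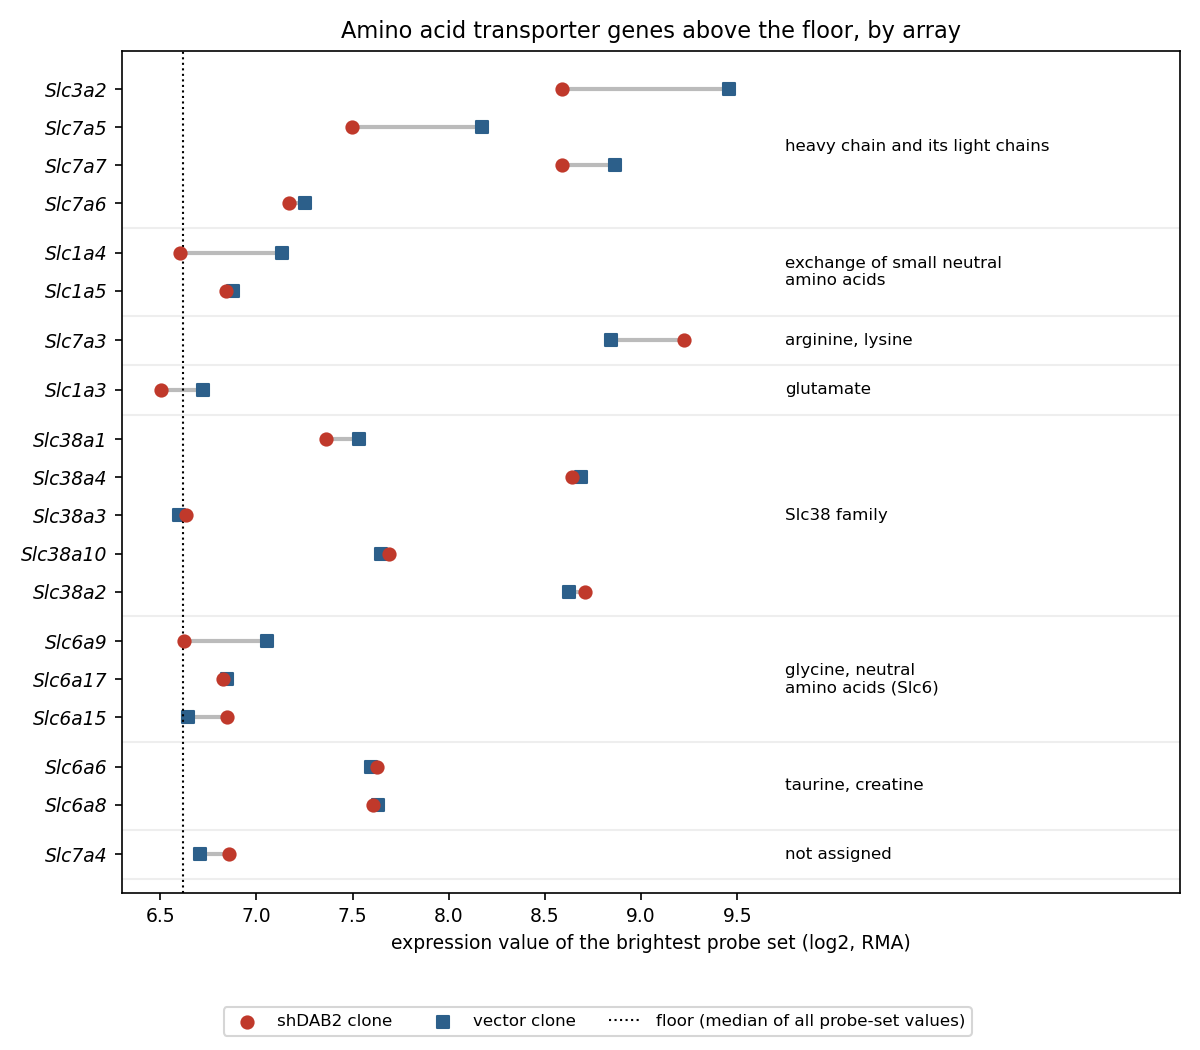
Log2 expression value (horizontal axis) of the 19 transporter genes above the floor on the shDAB2 array (circles) and the vector array (squares), grouped by role, with the floor of 6.62 as a dotted line. Slc3a2 and Slc7a5 show the widest gaps, with the shDAB2 value on the left, and Slc7a3 the widest gap in the other direction; each point is 1 array.

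The widest difference was in Slc3a2, the heavy chain of CD98, which pairs with a series of Slc7 light chains and brings them to the plasma membrane. It read 8.59 in shDAB2 cells and 9.46 in vector cells, a log2 difference of -0.87 or 1.83-fold lower. This placed it 27th from the lowest among the 7269 genes above the floor. The 500 genes nearest to it in signal had differences with an SD of 0.31. Slc3a2 has 1 probe set on the table, so its value has no second reading. The other heavy chain gene, Slc3a1, whose protein carries the cystine and dibasic amino acid carrier of kidney and gut, read 6.23 in shDAB2 cells and 6.20 in vector cells, below the floor on both arrays.

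Slc7a5 came next. It encodes LAT1, the light chain that imports leucine, phenylalanine and other large neutral amino acids in exchange for intracellular ones, and it works as a pair with the Slc3a2 protein. It read 7.50 in shDAB2 cells and 8.18 in vector cells, a difference of -0.68 or 1.60-fold lower, 74th from the lowest of all genes above the floor. The SD over the 500 genes nearest in signal was 0.24. The genes of both subunits of the leucine exchanger were thus lower, and they were the 2 transporter genes past 1.5-fold. Slc7a8, which encodes the other system L light chain on the table, was below the floor, at 6.04 in shDAB2 cells and 6.10 in vector cells.

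The remaining light chains of Slc3a2 differed less. Slc7a7, whose protein exports arginine and lysine in exchange for neutral amino acids and sodium, read 8.59 in shDAB2 cells and 8.86 in vector cells, a difference of -0.28. That is 1.21-fold lower and within the SD of 0.30 of the 500 genes nearest in signal. Slc7a6, a carrier of the same exchange type, differed by -0.08 on the probe set used (7.17 in shDAB2 cells and 7.25 in vector cells) and by -0.05 on the other. The light chain genes of Slc3a2 above the floor, 3 of 6 measured, were all lower, where 49.3% of all genes above the floor were. Only Slc7a5 was at least 1.5-fold lower, as were 1.62% of all genes above the floor. The other 3 light chain genes lay below the floor: Slc7a8, Slc7a10 (0.06) and Slc7a11 (0.03). Slc7a11 encodes xCT, the cystine for glutamate exchanger, and its values of 6.14 in shDAB2 cells and 6.11 in vector cells are too near the lower end of the range to show whether it differed.

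Exchange of small neutral amino acids is the work of Slc1a4 and Slc1a5. Slc1a4 encodes ASCT1, which carries alanine, serine, cysteine and threonine. It read 6.60 in shDAB2 cells, just under the floor, and 7.13 in vector cells, a difference of -0.53 or 1.44-fold lower. Its other probe sets gave -0.34 and -0.49, so 3 of 3 readings were lower. The SD over the 500 genes nearest in signal was 0.14. Slc1a5, which encodes ASCT2, a glutamine exchanger of the same family, read 6.84 in shDAB2 cells and 6.88 in vector cells, a difference of -0.04. The pair thus differed unequally, although they share a family and much of their cargo.

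Glycine uptake gave a similar value on its leading gene. Slc6a9 encodes the glycine transporter GlyT1, the carrier that early mouse embryos use to take up glycine as an osmolyte. It read 6.63 in shDAB2 cells and 7.05 in vector cells, a difference of -0.43 or 1.35-fold lower, on the probe set with the higher mean. The other probe set read 6.63 in shDAB2 cells and 6.73 in vector cells, a difference of -0.10. The direction was the same on both probe sets but the size was not, and their mean was -0.27. Of the other Slc6 carriers of amino acids, Slc6a15, a carrier of proline and branched-chain amino acids, was higher, at 6.85 in shDAB2 cells and 6.65 in vector cells (0.20). Genes nearest to Slc6a15 in signal had an SD of 0.13. Slc6a17, a carrier of neutral amino acids on synaptic vesicles, differed by -0.02, from values of 6.83 in shDAB2 cells and 6.85 in vector cells. The remaining 5 members of this class lay below the floor.

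Arginine and lysine uptake held the only member that was higher by more than 0.32 on the log2 scale. Slc7a3 encodes CAT3, a carrier of cationic amino acids that works without a heavy chain. It read 9.22 in shDAB2 cells and 8.84 in vector cells, a difference of 0.38 or 1.30-fold higher, 224th from the highest of all genes above the floor. The SD over the 500 genes nearest in signal was 0.32, so this difference was little larger than that of its neighbours, and it rests on 1 probe set. Slc7a1, which encodes CAT1, the widespread carrier of the same cargo, was below the floor with 6.22 in shDAB2 cells and 6.35 in vector cells. Slc7a2, the third of the cationic carriers, was below the floor as well, with probe-set differences of -0.08, 0.01 and 0.04. Slc7a3 and Slc7a5, members of 1 family, therefore went in opposite directions.

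**Figure D2:**
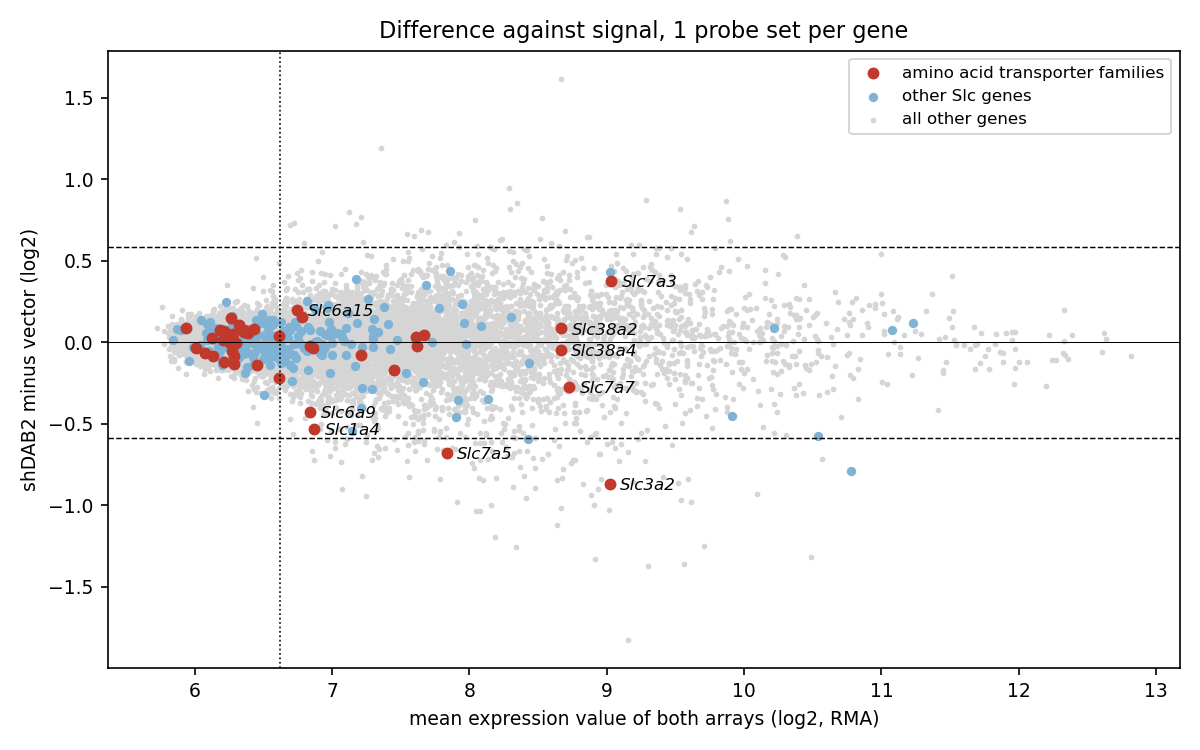
Log2 difference of shDAB2 minus vector (vertical axis) against the mean log2 value of both arrays (horizontal axis), with 1 point per gene. Dashed lines mark 1.5-fold, the dotted line the floor of 6.62; Slc3a2 and Slc7a5 lie under the lower dashed line, Slc1a4 and Slc6a9 just above it, and Slc7a3 is the highest transporter gene.

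The Slc38 genes, carriers of glutamine, alanine and other small neutral amino acids, showed little difference. Of the 5 above the floor 2 were lower and 3 higher, where 49.3% of all genes above the floor were lower. The family ran from -0.17 to 0.09 with a median of 0.04. Slc38a2 encodes SNAT2, the carrier of system A whose gene is known to respond to amino acid shortage. It read 8.71 in shDAB2 cells and 8.62 in vector cells, a difference of 0.09. Slc38a1, a glutamine carrier, read 7.36 in shDAB2 cells and 7.53 in vector cells, a difference of -0.17, within the SD of 0.19 of the genes nearest in signal. Slc38a4, an imprinted gene of the family, differed by -0.05 on the probe set used and by -0.01 on the other, with 8.64 in shDAB2 cells and 8.69 in vector cells. Slc38a3, a glutamine carrier of liver and brain, differed by 0.04 at the floor. Slc38a10 has 7 probe sets, whose differences ran from -0.07 to 0.25, so the spread over its readings was larger than the 0.04 of the probe set used. Slc38a5 was below the floor, with a difference of 0.01.

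The carriers of taurine and creatine were close to even. Slc6a6, the taurine transporter gene, read 7.63 in shDAB2 cells and 7.60 in vector cells. Slc6a8, the creatine transporter gene, read 7.61 in shDAB2 cells and 7.63 in vector cells, with 0.00 on its other probe set. Slc7a4, a family member with no transport activity assigned here, was higher by 0.15, 0.18 and 0.12 on its 3 probe sets. The one used read 6.86 in shDAB2 cells and 6.71 in vector cells, where the 500 genes nearest in signal had an SD of 0.13. Among glutamate carriers, Slc1a3 read 6.50 in shDAB2 cells and 6.72 in vector cells, a difference of -0.22. That is past the SD of 0.10 of the 500 genes nearest in signal, but the other probe sets of Slc1a3 gave 0.06 and 0.00. Its direction is therefore uncertain.

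The 24 genes below the floor read 5.98 to 6.47 in shDAB2 cells and 5.89 to 6.53 in vector cells, and their differences ran from -0.14 to 0.15 with a median of 0.03. They include the glutamate carrier genes Slc1a1 (-0.14), Slc1a2 (0.08) and Slc1a6 (0.15), and Slc7a13 (-0.05). All measured genes of GABA carriers (Slc6a12 and Slc6a13) and of monoamine carriers (Slc6a2, Slc6a3 and Slc6a4) were among them. So were Slc6a5, Slc6a14, Slc6a18, Slc6a20a and Slc6a20b of the glycine, proline and neutral amino acid class, Slc7a12, Slc43a3, and Slc7a9, whose protein pairs with that of Slc3a1. RMA shrinks differences of dim probe sets, so these values do not show that the genes are off or even between the clones.

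Repeat readings were available for some genes. More than 1 probe set was present for 13 of the 43 genes, and 8 genes had at least 2 above the floor. All readings above the floor had the same sign in 5 of these 8, namely Slc1a4, Slc6a9, Slc7a4, Slc7a6 and Slc38a4. Of the 5 genes with the widest differences, Slc1a4 and Slc6a9 had such a second reading, while Slc3a2, Slc7a5 and Slc7a3 had none.

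**Figure D3:**
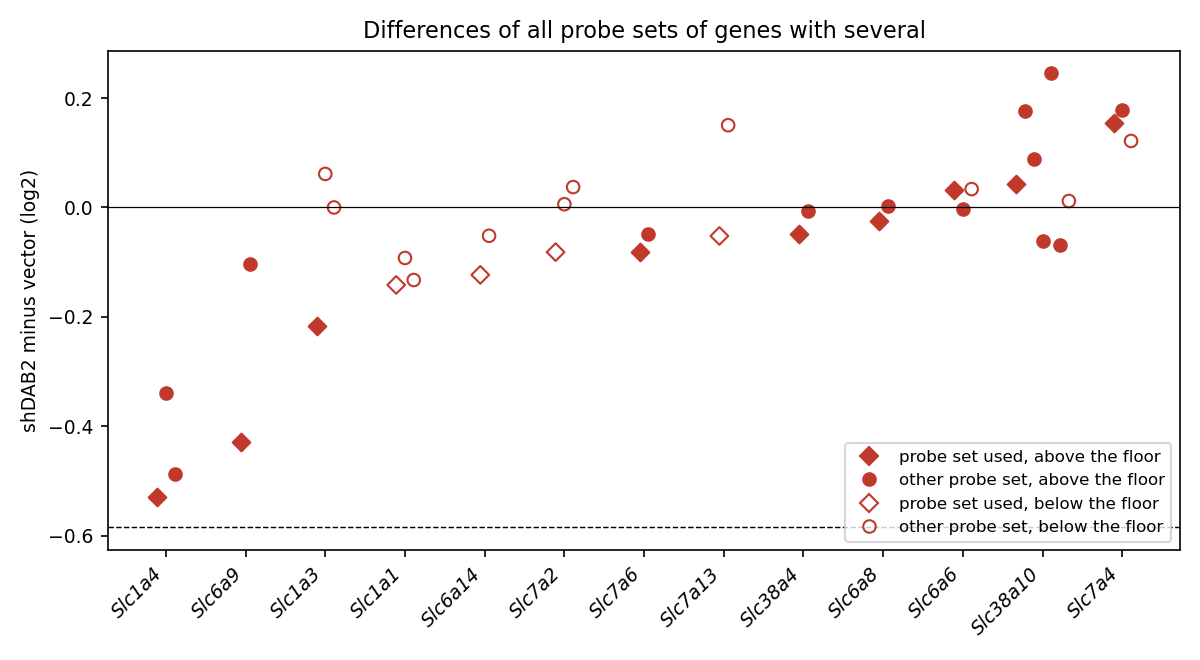
Log2 difference of shDAB2 minus vector for every probe set of the 13 transporter genes with more than 1, with filled symbols above the floor and open symbols below it; the dashed line marks 1.5-fold lower. The readings of Slc1a4 lie together at -0.53, -0.34 and -0.49, those of Slc6a9 lie apart at -0.43 and -0.10, and those of Slc38a10 fall on both sides of 0.

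By subfamily, the Slc1a genes above the floor were lower in 3 of 3 cases, with a median of -0.22, where 49.3% of all genes above the floor were lower. Slc1a3 and Slc1a4 passed the floor on the vector array only, where they read higher, and the other probe sets of Slc1a3 gave 0.06 and 0.00. The Slc1a median was -0.04 with both arrays above the floor and -0.09 with no floor, so the count is no support for a lower subfamily. The Slc6a genes were lower in 3 of 5 cases, with a median of -0.02. The Slc7a genes were lower in 3 of 5 cases, with a median of -0.08. Counts of 3 in 5 are near the share among all genes. Their range, from -0.68 to 0.38, was the widest of any subfamily with several genes above the floor. The Slc38a range was narrower, as given above. By cargo, the genes above the floor for large neutral amino acids (1 gene), heavy chains (1 gene), small neutral exchange (2 genes) and cationic for neutral exchange (2 genes) were all lower, and the cationic class was higher through Slc7a3 alone. With both arrays above the floor the small neutral exchange class held only Slc1a5, at -0.04, against a class median of -0.28 with Slc1a4. With no floor the cationic median was -0.08, the opposite sign, since Slc7a1 and Slc7a2 then enter. Sodium-coupled glutamine carriers and the taurine and creatine carriers lay on both sides of 0. Classes of 1 or 2 genes allow no statement beyond these genes.

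A cut across the families gave a wider gap. A total of 9 members are known to be induced by ATF4 or by amino acid limitation: Slc3a2, Slc7a5, Slc1a4, Slc6a9, Slc1a5, Slc38a2, Slc7a3, Slc7a1 and Slc7a11. This list was chosen with earlier results of these data known, so the gap is a description only. The 7 of them above the floor had a median of -0.43, with 5 lower and 2 higher, where 49.3% of all genes that passed the floor were lower. Lower by more than 0.32 on the log2 scale were 4 of the 7, against 6.07% of all genes. Slc1a4 is among them and passed on the vector array only: with both arrays above the floor the median was -0.23. It was also -0.23 without Slc3a2, -0.27 with each gene's probe sets averaged, -0.30 with the floor at the 75th percentile and -0.13 with no floor. The 12 other members above the floor had a median of -0.02, and 0 of them were 0.32 apart in either direction. Of all genes, 6.07% passed this limit downwards and 4.91% upwards, so 0 in 12 does not set these members apart. The limitation list itself was not uniform, since Slc38a2 (0.09) and Slc7a3 (0.38) were higher and Slc1a5 was close to even. On the same arrays Atf4 read 8.61 in shDAB2 cells and 9.99 in vector cells, and its target Asns, the asparagine synthetase gene, read 8.24 in shDAB2 cells and 10.07 in vector cells. Differences of the transporter genes were thus smaller than the 3.54-fold of Asns. A link between Atf4 and the transporter differences was not tested.

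**Figure D4:**
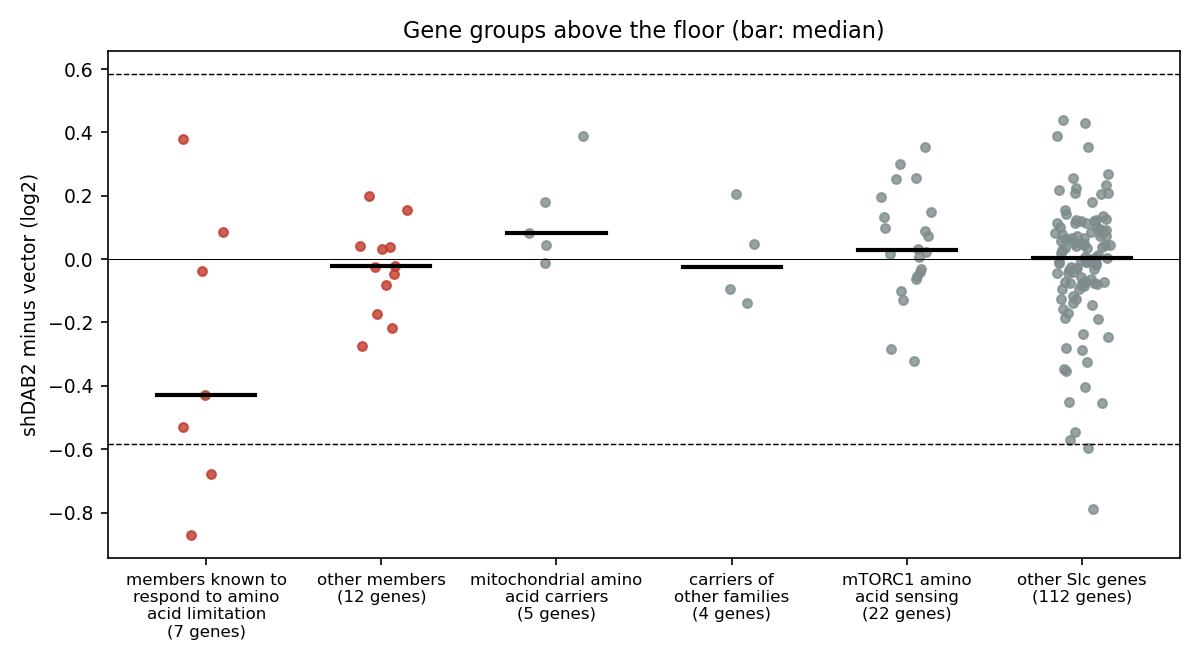
Log2 difference of shDAB2 minus vector for genes above the floor in 6 groups, with the median as a bar and 1.5-fold as dashed lines. The 7 members known to respond to amino acid limitation have a median of -0.43, while the 12 other members, the mitochondrial carriers, the carriers of other families, the mTORC1 genes and other Slc genes have medians between -0.02 and 0.08; the last group also holds most genes of the mitochondrial and other-family lists.

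Promoter windows of 4 members are shown because ATF4 is known to act on its target genes through a short DNA element, often close to the start of the gene. The windows are RefSeq's, build GRCm38.p6, and run 5′ to 3′ on the gene's own strand from 150 bases before to 30 bases after the annotated start. Capitals mark TGATGNAA, the letters of the C/EBP-ATF response element, or its opposite-strand form TTNCATCA. Slc1a4 (chr11:20332684-20332863, minus strand) and Slc7a7 (chr14:54417915-54418094, minus strand) are members above the floor whose window holds the motif. Slc7a11 (chr3:50443584-50443763, minus strand) holds it on both strands, and Slc3a2 (chr19:8713868-8714047, minus strand), the gene with the widest difference, does not hold it.
Slc1a4: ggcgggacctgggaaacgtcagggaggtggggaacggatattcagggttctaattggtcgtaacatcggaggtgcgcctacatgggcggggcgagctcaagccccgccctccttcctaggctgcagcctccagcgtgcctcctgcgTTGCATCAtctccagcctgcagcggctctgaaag
Slc7a7: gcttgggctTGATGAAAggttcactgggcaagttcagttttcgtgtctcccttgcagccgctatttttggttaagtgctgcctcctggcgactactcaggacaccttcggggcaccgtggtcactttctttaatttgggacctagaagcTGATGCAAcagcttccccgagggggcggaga
Slc7a11: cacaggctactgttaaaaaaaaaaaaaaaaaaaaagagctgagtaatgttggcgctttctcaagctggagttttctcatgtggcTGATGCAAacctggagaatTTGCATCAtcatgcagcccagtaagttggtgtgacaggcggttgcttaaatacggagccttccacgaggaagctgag
Slc3a2: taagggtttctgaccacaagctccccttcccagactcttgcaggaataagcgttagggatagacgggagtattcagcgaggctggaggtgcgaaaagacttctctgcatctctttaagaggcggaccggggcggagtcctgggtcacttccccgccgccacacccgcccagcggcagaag

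In full windows of 250 bases before to 50 after the start, the motif was searched on both strands. Of the 43 members 28 had at least 1 window, and 3 of these genes (10.7%), Slc1a4, Slc7a7 and Slc7a11, held it, against 4.51% of all genes with a window. Of the members above the floor 10 had a window and 2 of them (20.0%) held it, against 2.41% of all such genes on the arrays. Slc7a5, Slc7a3 and Slc1a5 were among those without a window, so the motif was not searched in them. In Slc1a4 the match spans the annotated start, from 4 bases before it. In Slc7a7 the matches of the window shown lie 141 bases before the start and across it, and the match across the start also lies in the window of another annotated start downstream. In Slc7a11 they lie 66 and 47 bases before the start, in opposite orientations. Both holders above the floor, Slc1a4 (-0.53) and Slc7a7 (-0.28), were lower, where 49.3% of all genes above the floor were. Slc1a4 passed the floor on the vector array only, where it read higher. Slc7a7 was within the SD of 0.30 of the 500 genes nearest in signal. The direction of these 2 genes therefore allows no statement on the motif. The 8 others with a window were Slc3a2 (-0.87), Slc6a9 (-0.43), Slc1a3 (-0.22), Slc7a6 (-0.08), Slc38a4 (-0.05), Slc6a17 (-0.02), Slc38a10 (0.04) and Slc38a2 (0.09). A match of 8 letters is a description of these windows and says nothing of binding in these cells, and elements further away were not searched.

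Among genes that work beside these transporters, 0 passed 1.5-fold, against 1.62% of all genes downwards and 0.578% upwards. Slc25a15, Nedd4, Rraga and Rragc were more than 0.32 apart on the log2 scale, as were 6.07% of all genes downwards and 4.91% upwards. These counts do not set such genes apart from all genes. Of the amino acid carriers of the inner mitochondrial membrane, 4 of 5 above the floor were higher, with a median of 0.08, where 50.0% of all genes above the floor were higher. Slc25a44 is among the 4 and passed the floor on the shDAB2 array only, where it read higher. Slc25a15, the ornithine carrier gene of the urea cycle, was the highest at 0.39, with 7.37 in shDAB2 cells and 6.98 in vector cells. Next were Slc25a38 (0.18), a glycine carrier gene of haem synthesis, Slc25a22 (0.08), a glutamate carrier gene, and Slc25a44 (0.05), a carrier gene for branched-chain amino acids. Of amino acid and peptide carriers in other families, 2 of 4 above the floor were higher, namely the lysosomal carrier genes Slc15a4 (0.21) and Slc66a1 (0.05), and Slc15a2 (-0.14) and Slc32a1 (-0.09) were lower.

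The genes by which the kinase complex mTORC1 senses amino acids had 14 of 22 higher and a median of 0.03, and 0 of them were 1.5-fold apart. Among all genes above the floor 50.0% were higher. Some of the 14 passed the floor on the shDAB2 array only, where they read higher. The widest were the Rag GTPase genes Rraga (0.35, with 7.65 in shDAB2 cells and 7.29 in vector cells) and Rragc (-0.32, with 7.71 in shDAB2 cells and 8.03 in vector cells), which encode partners of 1 dimer and went apart. Sec13, of the GATOR2 complex, stood at 0.30 and Tsc2, an inhibitor of the pathway, at -0.28. Of the ubiquitin ligase genes whose proteins act on amino acid transporters, Nedd4 was 1.30-fold lower, with 10.03 in shDAB2 cells and 10.41 in vector cells, and Nedd4l was 1.16-fold lower. The genes of the transporter partners Cltrn and Cd44 were below the floor.

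Among genes above the floor, the transporter families held a larger share of lower genes than other solute carriers. With 1 array per clone this could not be tested. Among 112 other genes above the floor whose symbols begin with Slc, 54 were lower and 57 higher, and the median was 0.004. At least 1.5-fold lower were 2 of the 112 (1.79%), near the 1.62% of all genes, and lower by more than 0.32 on the log2 scale were 10 (8.93%), where the transporter families had 4 of 19 (21.1%). Slc1a4 is among these 4, and Slc1a3 and Slc1a4 are among the transporter genes counted as lower. Both passed the floor on the vector array only, where they read higher, so the floor adds to the larger share. Without Slc3a2 and Slc7a5 the remaining 17 transporter genes had 10 lower and 7 higher, and a median of -0.02. With no floor the median of all 43 transporter genes was 0.002, against 0.009 for all genes, so the families as a whole were not lower.

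Some markers of other cell types differed between the clones as well. Of 8 trophectoderm markers 4 were above the floor: the keratin genes Krt18 (-1.32) and Krt8 (-0.72), Tfap2c (-0.47) and Hand1 (-0.02). All 4 were lower, where 49.3% of all genes above the floor were, but Hand1 was close to even. The 2 keratin genes were past 1.5-fold lower, as were 1.62% of all genes above the floor. The mean log2 value over the 8 was 7.47 in shDAB2 cells and 7.77 in vector cells. The regulators Cdx2 (-0.03), Gata3 (-0.02), Eomes (0.11) and Elf5 (0.07) were below the floor on both arrays, and went both ways. Of 9 primitive endoderm markers 3 were above the floor: Dab2 (-0.31), Col4a1 (-0.29) and Lama1 (0.13). Dab2 is the target of the hairpin and passed on the vector array only. The mean over the 9, Dab2 included, was 6.47 in shDAB2 cells and 6.51 in vector cells, and Gata4, Gata6 and Sox17 were below the floor. Of 8 fibroblast markers 1 was above the floor, and the mean over the 8 was 6.35 in shDAB2 cells and 6.38 in vector cells. The part of trophectoderm-type gene expression in the transporter differences was not tested.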

How the data were processed

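Total RNA of 2 clones was measured on 1 Affymetrix mouse 430A array each. Per the submitters' processing notes, the deposited log2 values were made by the authors with RMA, which subtracts background, quantile-normalizes and summarises each probe set. The sources used here give neither the RMA version nor the log base, and log2 was taken because RMA writes it. The lowest and highest values were 5.67 and 12.81 for the shDAB2 array, and 5.65 and 12.86 for the vector array.

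Gene names came from the platform annotation: 20380 of the 22626 probe sets had 1 gene and were used, 691 had several and 1555 had none here. The measure was shDAB2 minus vector. With 1 array per group no p-value was computed. Genes were described by size (1.5-fold, and a smaller limit of 0.32 on the log2 scale). Precision is limited by having 1 array per clone.

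The members, cargo classes, lists and limits were chosen with earlier results of these data known. Every member could be named; from other lists up to 4 genes with the widest differences, markers and context genes. Counting was tested on simulated data with planted differences wider than that of any member, which checks the code only. Tools were Python 3.11.15 (pandas 2.3.3, statsmodels 0.14.6) and limma 3.58.1 in R 4.3.3. Alternatives were cyclic loess, median centring, removal of a signal trend, other probe-set rules, floors, fold limits and member rules.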

Additional observations from a re-analysis of the deposited data

How the results depend on the processing

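No paired analysis was possible because each group holds 1 array, and no replicate could be left out. Of the 12 alternatives, those on normalization, floor, the mean of all probe sets and the membership rule left the counts at 2 genes lower and 0 higher by 1.5-fold. When the probe sets of types _a_at, _s_at and _x_at were left out, the lower count was 1, since Slc3a2 has only such a probe set. By construction a limit of 0.32 on the log2 scale gave 4 lower and 1 higher, and a 2-fold limit gave 0 lower. The median of all members above the floor ran from -0.06 (amino acid carriers only) to 0.002 (no floor, which adds dim genes). Of 171 single-gene values 170 stayed within 0.11, the SD for 1 probe set, and the exception was Slc6a9 at -0.27 with the mean of its probe sets. Many of these values could not change. Floors and member rules only choose genes, and probe-set rules leave a gene with 1 probe set as it was or drop it. Only the normalization settings, and the probe-set rules for genes with several, could alter a value. Of the medians of subfamilies, cargo classes and the limitation list, 132 values stayed within 0.11 and 17 did not. Among these the Slc7a median turned to 0.04 without the same probe sets, which removes Slc7a7, and the cationic median to -0.08 with no floor. With no floor the medians of large neutral carriers (-0.37) and heavy chains (-0.42) were nearer 0, since Slc7a8 and Slc3a1 enter. With both arrays above the floor the Slc1a and small neutral exchange medians were -0.04, since Slc1a3 and Slc1a4 leave. The median without Slc3a2 was added after the data were seen.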
